A study of Homo sapiens with 26 samples.

Results

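Mitosis genes, the set that a cell switches on to divide its chromosomes, were followed here through loss of the Mediator kinases and inhibition of BET proteins. Taken by name, 44 genes were chosen: cyclins, kinases and phosphatases of mitotic entry (9 genes), the chromosomal passenger complex (3), the spindle checkpoint (5), activators and substrates of the anaphase-promoting complex (3), centromere and kinetochore (5), kinesins (7), cytokinesis (4), spindle assembly and chromosome structure (6) and transcription factors (2). They are 44 of the 58039 genes in the count table, and all 44 were among the 17198 genes with enough reads to be tested. The choice used gene names and not measured values, but it was made with earlier results of these data known.

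RNA was sequenced from HCT116, a human colon carcinoma line, in 26 libraries of 9 groups. Untreated control HCT116 cells (3 libraries) were set beside CRISPR knockout sublines that lack CDK8 (CDK8KO-C1 and CDK8KO-C2, 3 libraries each), CDK19 (CDK19KO-C1 and CDK19KO-C2, 3 each) or both (CDK8/19KO, written DKO; DKO-C1 and DKO-C2, 3 each). Control cells (3 libraries) and DKO-C1 cells (2 libraries) were also sampled with JQ1, an inhibitor that displaces BET bromodomain proteins from acetylated chromatin. The sources used here do not give the JQ1 dose and time, the edited sites, or whether a subline is 1 clone. No source says that libraries of a group came from separate cultures, so each p-value measures the spread between these libraries only. The count table numbers the DKO-C2 columns CL3, and 1 of the 2 JQ1-treated DKO-C1 columns carries a number that no sample title has, so those libraries are called replicates a, b and c here.

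CDK8 and its paralogue CDK19 are the kinases of the Mediator complex, which links enhancer-bound factors to RNA polymerase II. Mitosis genes are silent in resting cells, are switched on in G2 by the MuvB complex with B-Myb (MYBL2) and FOXM1, and many of their promoters carry CCAAT boxes bound by NF-Y next to a cell cycle genes homology region (CHR), the site that MuvB binds. Their products then act in order: CDK1 with cyclin B drives entry, the spindle and kinetochores align the chromosomes, the anaphase-promoting complex releases the sisters, and cytokinesis divides the cell. In bulk RNA, fewer cells in G2 or mitosis and less RNA per cell cannot be told apart.

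The promoters of 7 members are printed to show the CHR and CCAAT letters where present, with members whose responses differed below. Each is the 120 bases upstream of a RefSeq start (GRCh38.p14, all on the + strand, 5′ to 3′), and capitals mark the CHR letters TTTGAA or TTCGAA and the CCAAT letters, on either strand. They lie at chr1:43358861-43358980 (CDC20), chr1:44739717-44739836 (KIF2C), chr5:138178992-138179111 (KIF20A), chr10:92593010-92593129 (KIF11), chr15:59105026-59105145 (CCNB2), chr16:23678769-23678888 (PLK1) and chrX:70289984-70290103 (KIF4A).
CCNB2: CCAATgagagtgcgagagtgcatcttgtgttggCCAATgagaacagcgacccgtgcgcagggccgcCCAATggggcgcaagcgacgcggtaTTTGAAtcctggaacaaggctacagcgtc
PLK1: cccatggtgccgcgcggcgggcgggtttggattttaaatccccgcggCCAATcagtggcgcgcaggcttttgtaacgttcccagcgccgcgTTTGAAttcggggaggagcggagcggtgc
CDC20: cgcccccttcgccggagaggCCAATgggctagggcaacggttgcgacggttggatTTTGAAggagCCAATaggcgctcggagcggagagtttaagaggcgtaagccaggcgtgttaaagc
KIF11: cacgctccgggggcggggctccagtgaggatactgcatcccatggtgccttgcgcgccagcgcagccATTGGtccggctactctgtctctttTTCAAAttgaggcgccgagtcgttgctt
KIF4A: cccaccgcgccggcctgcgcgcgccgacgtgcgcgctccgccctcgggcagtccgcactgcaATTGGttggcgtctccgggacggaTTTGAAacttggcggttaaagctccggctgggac
KIF20A: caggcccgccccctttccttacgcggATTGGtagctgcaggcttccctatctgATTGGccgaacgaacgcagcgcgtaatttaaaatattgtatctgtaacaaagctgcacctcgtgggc
KIF2C: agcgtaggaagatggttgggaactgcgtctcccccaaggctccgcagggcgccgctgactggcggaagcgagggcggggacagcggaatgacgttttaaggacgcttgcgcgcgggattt
CCNB2, the gene of cyclin B2, held 3 CCAAT boxes and 1 CHR in this stretch, PLK1, KIF11 and KIF4A held 1 of each, and CDC20 held 2 CCAAT boxes and 1 CHR. KIF20A held 2 CCAAT boxes and no CHR letters, and KIF2C held neither. RefSeq windows of 250 bases before to 50 bases after a start were at hand for 36 of the 44 members. The CHR letters were in a window of 27 of the 36 genes (75.0%) against 19.5% of all 27305 genes with a window, and CCAAT on either strand was in 29 (80.6%) against 39.7%. Both were in 23 (63.9%) against 7.85%. The E2F letters TTTCCCGC, TTTGGCGC, TTTCGCGC or TTTGCCGC, searched on both strands, were in 3 (8.33%) against 3.99%. Among the 10724 tested genes with a window, the shares were 15.3% for CHR, 42.9% for CCAAT, 6.4% for both and 6.49% for E2F, the last close to that of the members. A match is a description of letters, not of a bound site.

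Gene counts ran from 17700864 to 19093094 per library, and 23203 to 24939 genes were detected. Libraries of a group correlated at 0.996 to 0.998 across genes, and every pair differed by more than counting noise (chi-square per degree of freedom 1.41 to 13.2 over 25 pairs). DKO-C2 replicate b lay farthest from its group, at 13.2 and 10.8 to the other libraries, which were at 2.28 to each other. Levels below are CPM, counts scaled to library size and by TMM, which compares each library with the bulk of its genes. Added ERCC spike-in RNA took 1.04% to 1.24% of counts in control libraries, 1.31% to 1.55% in control with JQ1, 2.29% to 2.40% in DKO-C1 and 2.47% to 3.02% in DKO-C1 with JQ1, so a scaling by spike-ins gives other values, which are printed once for each comparison. A spike-in label is given to the 14 libraries of the 5 control and DKO groups only, although every library holds ERCC counts; a batch of the single knockouts and their genotype cannot be told apart. Of 8 colon epithelium markers 6 or 7 reached 1 CPM in each group (summed 3945 to 7606 CPM, with VIL1 listed at 0 in control), while fibroblast markers summed to 13.6 to 31.3 CPM and leukocyte, endothelial and neural markers stayed under 1 CPM in sum. CDK8 RNA was 50.9 ± 1.12 CPM (SD, n = 3) in control and 37.8 ± 2.27 in DKO-C1, and CDK19 RNA 27.3 ± 2.73 and 33.2 ± 1.54, so RNA level does not check the knockouts. HEXIM1, a gene that rises when BET proteins are inhibited, rose by a log2 fold change of 1.24 ± 0.0478 (SE) in control (adjusted p = 2.58e-22) and 1.19 ± 0.0524 in DKO-C1 (adjusted p = 1.90e-20).

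On the TMM scale, the mitosis genes under JQ1 fell together in DKO-C1 cells and split in control cells. In DKO-C1, 38 of 44 fell and 0 rose (median log2 fold change -0.44), where 25.4% of all tested genes fell and 24.9% rose around a median of -0.0048. In control cells 19 fell and 13 rose (median -0.06), where 29.1% of all genes fell and 27% rose (median -0.02). The difference of the 2 responses, tested directly, was lower in DKO-C1 for 31 members and higher for 0 (median -0.36, all 44 estimates below 0), where 4.7% of all genes were called lower and 3.9% higher (median 0.03). Calls are edgeR quasi-likelihood tests of all 26 libraries at an adjusted p under 0.05 (Benjamini-Hochberg over all tested genes, two-sided). For the 0 that rose in DKO-C1, 1 member had an unadjusted p under 0.05, and DESeq2 and limma voom also called 0; for the 0 higher in the difference, the unadjusted count and those of both tools were 0. By the same tools the 31 became 29 and 29, and 40 members were lower at an unadjusted p under 0.05.

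**Figure D1:**
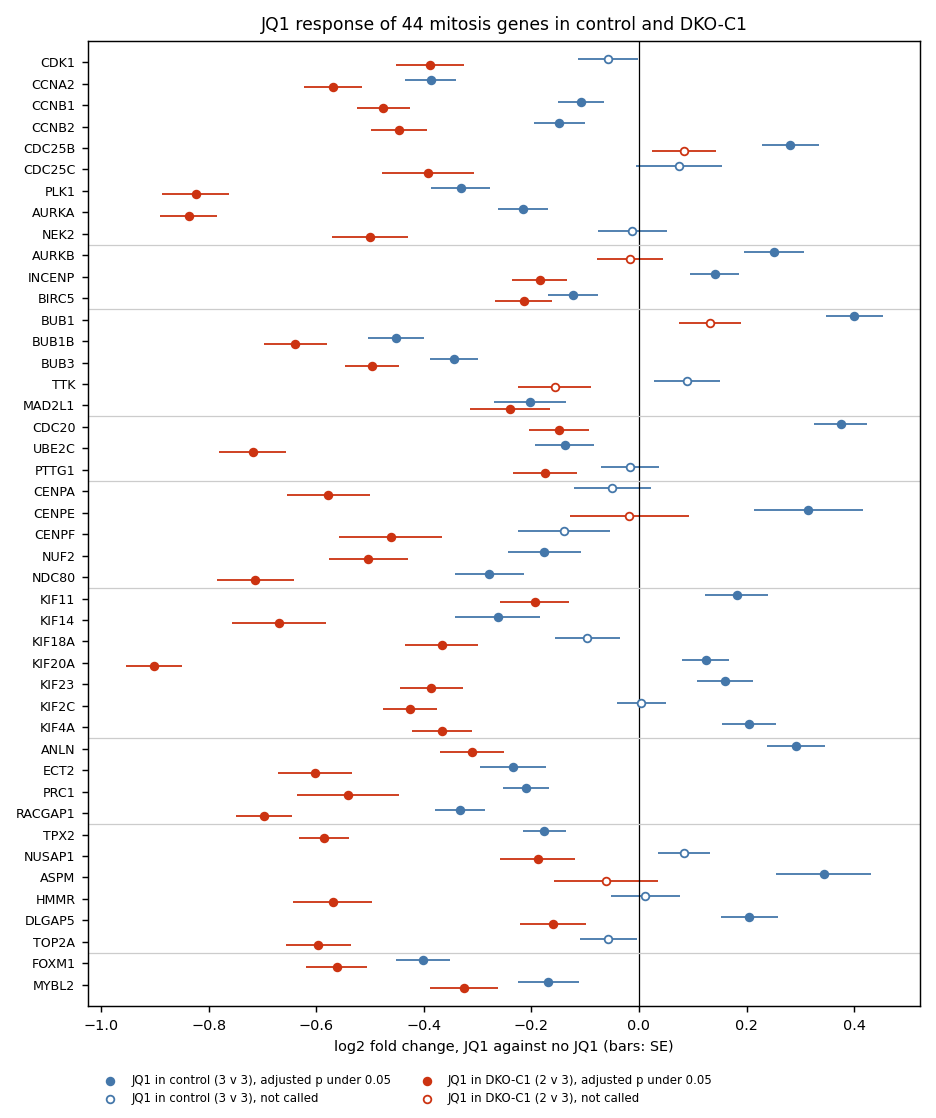
Log2 fold change with JQ1 (x axis) for the 44 mitosis genes, grouped by role: blue, control cells (3 libraries against 3); red, DKO-C1 cells (2 against 3). Points are edgeR estimates, bars ± SE, filled points adjusted p under 0.05. The red points reach -0.90 at KIF20A and 38 lie below 0 and are filled, while blue points lie on both sides of 0.

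The 31 members lower in the difference fell into 4 patterns. For 12 the drug lowered the gene in both lines and lowered it more in DKO-C1, for 8 the gene fell in DKO-C1 and rose in control, for 8 it fell in DKO-C1 with no call in control, and for 3 (AURKB, BUB1 and ASPM) it rose in control with no call in DKO-C1. A further 7 fell in both lines with no call on the difference, 3 fell in DKO-C1 alone with no call on the difference, and CDC25B and CENPE rose in control only, again with no call on the difference. TTK, a checkpoint kinase, was the 1 member with no call in any of the 3, at -0.16 ± 0.0677 (SE) in DKO-C1 (adjusted p = 0.0522) and 0.09 ± 0.061 in control (adjusted p = 0.217).

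Scaling by ERCC spike-ins moved the count of this contrast more than any other setting tried. With ERCC factors all genes moved down under JQ1, by a median of -0.27 in DKO-C1 and -0.37 in control, and the difference between the lines moved up by 0.096. The members' median was then -0.70 in DKO-C1 (39 lower), where 28.7% of all genes were lower around a median of -0.27. In control it was -0.42 (28 lower, 0 higher), where 44.6% of all genes were lower around a median of -0.39. None of the 13 members that rose in control with TMM was called higher on this scale. The members' median difference was -0.26, with 1 member called lower: KIF20A, at -0.93 (adjusted p = 0.0135). In that fit 59 of all 17198 genes were called lower (0.343%) and 83 higher. With 1 library left out, the number lower in the difference ran from 22, without JQ1-treated DKO-C1 replicate a, to 34, without JQ1-treated control replicate 1. Of the 31 members 22 kept the call whichever library was left out.

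Among the genes of mitotic entry, 8 of 9 fell in DKO-C1 (median -0.48), 5 fell and 1 rose in control (median -0.11), and 7 were lower in the difference. AURKA encodes the kinase that matures centrosomes and activates PLK1. It stood at 104, 99.8 and 97.0 CPM in control libraries, 87.9, 85.3 and 86.2 with JQ1, 134, 138 and 145 in DKO-C1 and 79.5 and 76.0 in DKO-C1 with JQ1. Both lines were lower with the drug in every library; DKO-C1 began above control and ended below JQ1-treated control, without overlap at either point. Its log2 fold change was -0.84 ± 0.0529 (SE) in DKO-C1 (adjusted p = 6.78e-16) and -0.22 ± 0.0469 in control (adjusted p = 0.000169), and the difference was -0.62 ± 0.0704 (adjusted p = 3.54e-08).

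PLK1, the Polo-like kinase that acts from mitotic entry to cytokinesis, was at 297, 314 and 314 CPM in control, 243, 241 and 251 with JQ1, 297, 310.1 and 328 in DKO-C1 and 176 and 176 in DKO-C1 with JQ1. Untreated lines overlapped, and the drug left the 2 DKO-C1 libraries below all others of the 4 groups. Its log2 fold change was -0.82 ± 0.0625 in DKO-C1 (adjusted p = 9.69e-14) and -0.33 ± 0.0543 in control (adjusted p = 2.42e-06), with a difference of -0.49 ± 0.0821 (adjusted p = 4.65e-05). CCNB1, the gene of cyclin B1, was at 282, 277 and 281 CPM in control, 253, 259 and 268 with JQ1, 299, 296 and 301 in DKO-C1 and 220.0 and 209.6 with JQ1. The ordering matched that of AURKA: DKO-C1 was above control untreated and below it treated, in every library. Its log2 fold change was -0.48 ± 0.0489 in DKO-C1 (adjusted p = 2.06e-10) and -0.11 ± 0.0431 in control (adjusted p = 0.0332), with a difference of -0.37 ± 0.0649 (adjusted p = 0.000112). The small fall in control lost its call without control replicate 1 (-0.10, adjusted p = 0.0752), control replicate 3 (-0.11, 0.0723), JQ1-treated control replicate 1 (-0.09, 0.124) or replicate 2 (-0.10, 0.0761).

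The other entry genes that fell in DKO-C1 were CCNA2, the cyclin A2 gene (-0.57; -0.39 in control), CCNB2 (-0.45; -0.15), the centrosomal kinase gene NEK2 (-0.50; -0.01), CDC25C, whose phosphatase activates CDK1 (-0.39; 0.07), and CDK1 itself (-0.39; -0.06). CCNB2, NEK2, CDC25C and CDK1 were lower in the difference, and CCNA2 was not called there (adjusted p = 0.119). Without JQ1-treated DKO-C1 replicate a the difference of CDK1 was -0.21 (adjusted p = 0.196) and that of CDC25C -0.35 (adjusted p = 0.115). CDC25B, a related phosphatase gene, was not called in DKO-C1, at 0.08 ± 0.0596 (adjusted p = 0.253). It rose by 0.28 ± 0.0532 in control (adjusted p = 2.39e-05).

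**Figure D2:**
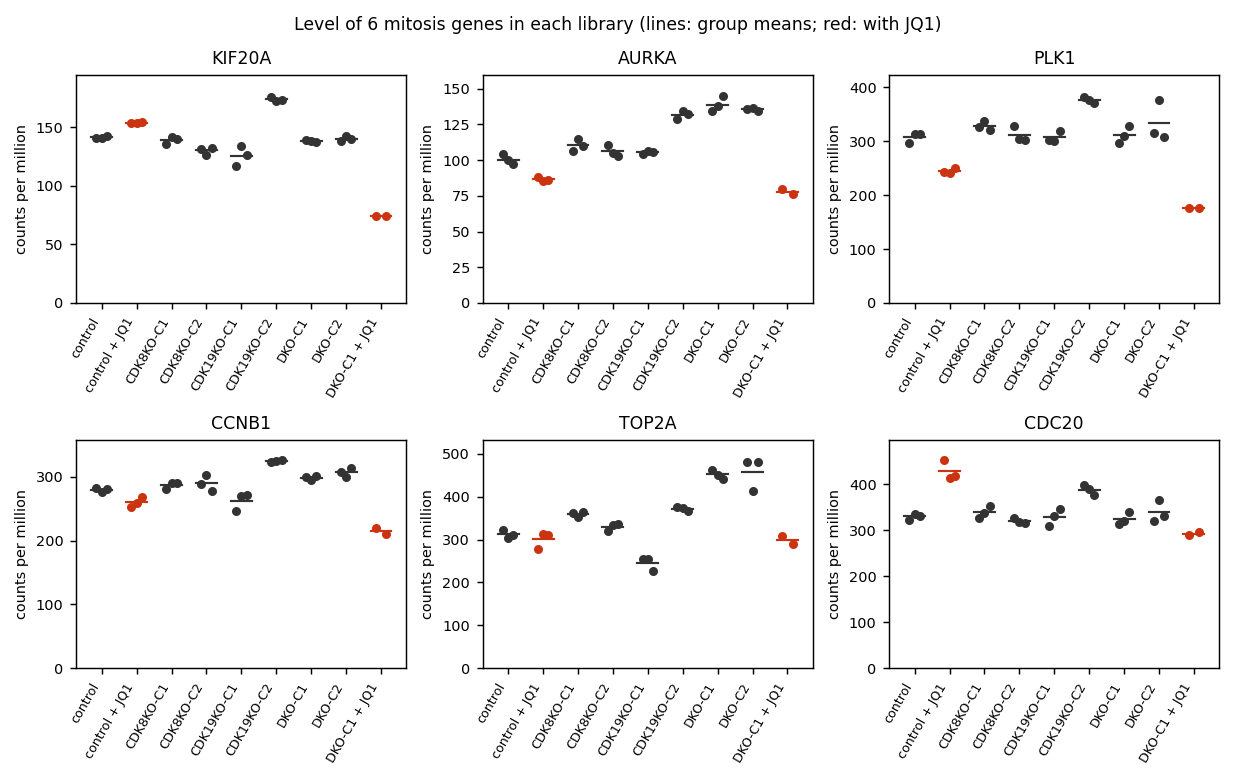
CPM (y axis, linear) of KIF20A, AURKA, PLK1, CCNB1, TOP2A and CDC20 in each of the 26 libraries, by group (x axis); points are libraries, lines group means, red the JQ1 groups. The 2 JQ1-treated DKO-C1 libraries of KIF20A sit at 73.8 and 74.2 CPM, below the libraries of all other groups.

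The chromosomal passenger complex, which corrects kinetochore attachments and starts cytokinesis, gave smaller changes. BIRC5, the gene of survivin, fell in both lines. It was at 229, 226 and 224 CPM in control, 210.1, 201 and 212 with JQ1, 223, 227 and 247 in DKO-C1 and 202 and 198 with JQ1, and treated libraries lay below untreated ones within each line. The log2 fold change was -0.21 ± 0.0526 in DKO-C1 (adjusted p = 0.000777) and -0.12 ± 0.0469 in control (adjusted p = 0.0256), and the difference of -0.09 ± 0.0703 was not called (adjusted p = 0.515). The control fall was not called without control replicate 1 (-0.11, adjusted p = 0.0663), control replicate 2 (-0.12, 0.0506) or JQ1-treated control replicate 2 (-0.10, 0.114). INCENP, the scaffold of the complex, split by line: 110.5, 119 and 115 CPM became 125, 129 and 125 in control and 151, 155 and 153 became 131 and 138 in DKO-C1. No treated library overlapped the untreated ones of its line, and the lines moved in opposite directions. INCENP changed by -0.18 ± 0.0511 in DKO-C1 (adjusted p = 0.00259) and rose by 0.14 ± 0.0463 in control (adjusted p = 0.00955), a difference of -0.33 ± 0.0689 (adjusted p = 0.00128). The fall lost its call without JQ1-treated DKO-C1 replicate 1 (-0.14, adjusted p = 0.0855) and the rise without control replicate 1 (0.11, adjusted p = 0.0585). AURKB, the kinase of the complex, was at -0.02 ± 0.0614 in DKO-C1 and rose by 0.25 ± 0.0554 in control (adjusted p = 0.000196); its difference of -0.27 ± 0.0828 (adjusted p = 0.0345) lost the call when any of 7 single libraries was left out, with adjusted p from 0.0556, without DKO-C1 replicate 2, to 0.149, without JQ1-treated DKO-C1 replicate 1.

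The spindle checkpoint genes, which hold anaphase until chromosomes are attached, gave close medians in the 2 lines: 3 of 5 fell in DKO-C1 (median -0.24), 3 fell and 1 rose in control (median -0.20), and 1 was lower in the difference. BUB1B, the gene of the checkpoint protein BubR1, was at 176, 177 and 170.0 CPM in control, 117, 126 and 139 with JQ1, 194, 185 and 187 in DKO-C1 and 122 and 120.5 with JQ1. BUB3, its partner, was at 335, 341 and 332, 255, 265 and 274, 391, 367 and 380.1 and 274 and 264 CPM in the same order. For both, all treated libraries were below all untreated ones, and the treated lines overlapped each other. BUB1B changed by -0.64 ± 0.0586 in DKO-C1 and -0.45 ± 0.0518 in control (adjusted p = 1.35e-11 and 2.08e-09), and BUB3 by -0.50 ± 0.0502 and -0.34 ± 0.0445 (adjusted p = 1.43e-10 and 2.96e-08). Neither difference was called: -0.19 ± 0.0778 for BUB1B (adjusted p = 0.144) and -0.15 ± 0.0667 for BUB3 (adjusted p = 0.171). When only the libraries compared were fitted, both were called, at -0.25 (adjusted p = 0.0359) and -0.21 (0.0387). MAD2L1, the gene of Mad2, fell in both lines (-0.24 in DKO-C1, -0.20 in control), but not without JQ1-treated DKO-C1 replicate a (-0.14, adjusted p = 0.253) or JQ1-treated control replicate 1 (-0.14, 0.0945). BUB1, a checkpoint kinase, rose in control by 0.40 ± 0.0522 (adjusted p = 3.28e-08) and was at 0.13 ± 0.0578 in DKO-C1 (adjusted p = 0.0568); it was the 1 checkpoint gene lower in the difference, at -0.27 ± 0.0781 (adjusted p = 0.0233), and that call was lost without JQ1-treated control replicate 2 (0.0521) or 3 (0.0887), DKO-C1 replicate 1 (0.0556) or JQ1-treated DKO-C1 replicate a (0.132).

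The 3 members that work with the anaphase-promoting complex, an E2 enzyme, a substrate and an activator, all fell in DKO-C1 (median -0.17) and 2 of 3 were lower in the difference. UBE2C, the E2 enzyme that feeds ubiquitin to the complex, was at 127, 136 and 136 CPM in control, 125, 113 and 124 with JQ1, 212, 203 and 209 in DKO-C1 and 127 and 126 with JQ1. Untreated DKO-C1 stood far above control, and with the drug it overlapped untreated control and lay just above JQ1-treated control. UBE2C changed by -0.72 ± 0.0618 in DKO-C1 (adjusted p = 2.69e-12) and -0.14 ± 0.0554 in control (adjusted p = 0.0325), with a difference of -0.58 ± 0.0826 (adjusted p = 3.38e-06). The control fall was not called without control replicate 2 (-0.12, adjusted p = 0.1), control replicate 3 (-0.12, 0.104) or JQ1-treated control replicate 2 (-0.09, 0.208).

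PTTG1, the gene of securin, was at 95.7, 92.2 and 90.9 CPM in control, 97.0, 85.8 and 93.0 with JQ1, 114, 108 and 112 in DKO-C1 and 99.2 and 97.5 with JQ1. Its DKO-C1 libraries separated by treatment and its control libraries overlapped. The fold changes were -0.17 ± 0.0594 in DKO-C1 (adjusted p = 0.0134) and -0.02 ± 0.0537 in control (adjusted p = 0.824), with no call on the difference (-0.16 ± 0.08, adjusted p = 0.255); the fall was not called without JQ1-treated DKO-C1 replicate 1 (-0.18, adjusted p = 0.0641) or replicate a (-0.15, 0.124). CDC20, which activates the complex at anaphase, was at 323, 335 and 332 CPM in control, 452, 415 and 418 with JQ1, 313, 321 and 340.4 in DKO-C1 and 290.2 and 296 with JQ1. The drug raised it in every control library and not in DKO-C1. CDC20 rose by 0.37 ± 0.0494 in control (adjusted p = 4.10e-08) and changed by -0.15 ± 0.0557 in DKO-C1 (adjusted p = 0.0246), so that its difference of -0.52 ± 0.0746 (adjusted p = 3.34e-06) came mainly from the control arm; the DKO-C1 fall was not called without DKO-C1 replicate 3 (-0.11, adjusted p = 0.119), JQ1-treated replicate 1 (-0.13, 0.168) or JQ1-treated replicate a (-0.15, 0.0941).

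At the centromere and kinetochore, where microtubules attach, 4 of 5 genes fell in DKO-C1 (median -0.50), 2 fell and 1 rose in control (median -0.14) and 3 were lower in the difference. NDC80, part of the complex that grips microtubules, was at 61.4, 56.3 and 58.2 CPM in control, 43.6, 48.9 and 52.6 with JQ1, 86.4, 83.2 and 82.3 in DKO-C1 and 54.2 and 48.3 with JQ1. CENPA, the histone H3 variant that marks centromeres, was at 23.4, 22.3 and 21.7, 22.2, 21.1 and 21.8, 34.5, 30.9 and 32.2 and 21.1 and 22.5 CPM in the same order. Both stood above control in untreated DKO-C1 and overlapped JQ1-treated control once treated; control libraries separated by treatment for NDC80 and not for CENPA. NDC80 changed by -0.71 ± 0.0709 in DKO-C1 and -0.28 ± 0.0646 in control (adjusted p = 9.26e-11 and 0.000369), with a difference of -0.43 ± 0.0956 (adjusted p = 0.00193). CENPA changed by -0.58 ± 0.0767 in DKO-C1 (adjusted p = 5.86e-08), was at -0.05 ± 0.0714 in control (adjusted p = 0.58), and differed by -0.53 ± 0.105 (adjusted p = 0.000581).

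NUF2, the partner of NDC80 in that complex, fell in both lines (-0.50 in DKO-C1, -0.18 in control) and was lower in the difference (-0.33, adjusted p = 0.032), a call lost when any of 5 libraries was left out (adjusted p 0.0616, without control replicate 2, to 0.244, without JQ1-treated DKO-C1 replicate a). Its control fall was not called without control replicate 1 (-0.15, adjusted p = 0.106) or JQ1-treated control replicate 1 (-0.17, 0.0638) or 2 (-0.16, 0.0852). CENPF, a large protein of the outer kinetochore, fell in DKO-C1 (-0.46 ± 0.0963, adjusted p = 0.000111), while control was at -0.14 ± 0.0857 (adjusted p = 0.166). CENPE, a kinetochore motor, rose in control by 0.31 ± 0.102 (adjusted p = 0.00831; 0.0548 without JQ1-treated control replicate 3) and was at -0.02 ± 0.11 in DKO-C1 (adjusted p = 0.915). The differences of CENPF and CENPE were not called (adjusted p = 0.124 and 0.188).

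The kinesins are motors that build the spindle and the midzone. All 7 fell in DKO-C1 (median -0.39), 4 rose and 1 fell in control (median 0.12), and 6 were lower in the difference (median -0.43). KIF20A, a motor of the central spindle that carries the passenger complex, was at 141, 140.4 and 142 CPM in control, 154, 154 and 154 with JQ1, 139, 139 and 137 in DKO-C1, 138, 142 and 140.2 in DKO-C2 and 73.8 and 74.2 in DKO-C1 with JQ1. The 3 untreated groups lay within a few CPM of one another, JQ1-treated control lay slightly above them, and the 2 JQ1-treated DKO-C1 libraries lay far below. KIF20A changed by -0.90 ± 0.0518 (SE) in DKO-C1, to 53.5% of the untreated level (adjusted p = 4.66e-17), and rose by 0.12 ± 0.0437 in control (adjusted p = 0.0153). The difference of -1.03 ± 0.0676 (adjusted p = 1.21e-13) was the largest of the 44 in size, and KIF20A also had the largest fall of the 44 in DKO-C1. With no filter on low counts, the small rise in control was not called (0.12, adjusted p = 0.0809), and with ERCC factors it was -0.24.

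KIF14, a motor of the midbody, was at 71.9, 70.6 and 68.6 CPM in control, 50.4, 64.4 and 61.2 with JQ1, 104, 99.7 and 99.0 in DKO-C1 and 65.8 and 61.2 with JQ1. Treated libraries were below untreated ones in each line, and JQ1-treated DKO-C1 overlapped JQ1-treated control. It changed by -0.67 ± 0.0869 in DKO-C1 and -0.26 ± 0.0791 in control (adjusted p = 3.72e-08 and 0.0048), with a difference of -0.41 ± 0.117 (adjusted p = 0.0224) that was not called without control replicate 3 (adjusted p = 0.0534), JQ1-treated control replicate 2 (0.0885) or 3 (0.0602), or JQ1-treated DKO-C1 replicate a (0.132). The control fall was not called without JQ1-treated control replicate 1 (-0.16, adjusted p = 0.0821).

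KIF11, the motor that separates the spindle poles, KIF23, a subunit of centralspindlin, and KIF4A, a chromosome-bound motor, fell in DKO-C1 and rose in control: -0.19 and 0.18 for KIF11, -0.39 and 0.16 for KIF23, and -0.37 and 0.21 for KIF4A. All 3 were lower in the difference (-0.38, -0.55 and -0.57). For KIF11 the fall was not called without DKO-C1 replicate 1 (-0.15, adjusted p = 0.0735) or JQ1-treated DKO-C1 replicate a (-0.16, 0.141), nor the rise without JQ1-treated control replicate 3 (0.14, 0.0699). KIF2C, which depolymerises microtubules at centromeres, fell in DKO-C1 (-0.42 ± 0.0502, adjusted p = 4.99e-09) and was at 0.0048 ± 0.0448 in control (adjusted p = 0.94), with a difference of -0.43 ± 0.0672 (adjusted p = 1.73e-05). KIF18A, which limits chromosome oscillation, fell in DKO-C1 (-0.37 ± 0.0673, adjusted p = 1.82e-05), and its difference of -0.27 ± 0.0903 was not called (adjusted p = 0.0541).

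All 4 cytokinesis genes fell in DKO-C1 (median -0.57) and all 4 were lower in the difference, while 3 fell and 1 rose in control (median -0.22). RACGAP1, the other subunit of centralspindlin, was at 177, 183 and 179 CPM in control, 137, 146 and 145 with JQ1, 252, 236 and 244 in DKO-C1 and 155 and 146 with JQ1. ECT2, the exchange factor that it recruits to the cell equator, was at 205, 198 and 199, 155, 173 and 184, 315, 298 and 296 and 203 and 197 CPM in the same order. For both, untreated DKO-C1 was above all control libraries and stayed above JQ1-treated control once treated. RACGAP1 changed by -0.70 ± 0.0518 in DKO-C1 and -0.33 ± 0.0461 in control (adjusted p = 5.80e-14 and 1.12e-07), with a difference of -0.36 ± 0.0689 (adjusted p = 0.000319). ECT2 changed by -0.60 ± 0.0684 and -0.23 ± 0.0613 (adjusted p = 2.07e-09 and 0.00132), with a difference of -0.37 ± 0.0914 (adjusted p = 0.00686). ANLN, the gene of the contractile-ring scaffold anillin, changed by -0.31 ± 0.0594 in DKO-C1 and rose by 0.29 ± 0.0535 in control (adjusted p = 3.39e-05 and 1.50e-05), and differed by -0.60 ± 0.08 (adjusted p = 9.85e-07). PRC1, the bundler of midzone microtubules, also fell in both (-0.54 in DKO-C1, -0.21 in control), from counts in DKO libraries that were very low and are described below; its difference (adjusted p = 0.0395) was not called when any of 6 libraries was left out (0.0685, without control replicate 1, to 0.205, without JQ1-treated DKO-C1 replicate 1).

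Of the 6 genes of spindle assembly and chromosome structure, 5 fell in DKO-C1 (median -0.38), 1 fell and 2 rose in control (median 0.05), and all 6 were lower in the difference. TOP2A, the topoisomerase that untangles sister chromatids, was at 322, 304 and 311 CPM in control, 278, 314 and 309.7 with JQ1, 463, 451 and 442 in DKO-C1 and 309 and 289 with JQ1. DKO-C1 began well above control and, treated, overlapped both control groups. TOP2A changed by -0.60 ± 0.0601 in DKO-C1 (adjusted p = 1.31e-10), was at -0.06 ± 0.0533 in control (adjusted p = 0.383) and differed by -0.54 ± 0.08 (adjusted p = 7.01e-06). TPX2, which activates AURKA on the spindle, was at 471, 466 and 480.2 CPM in control, 395, 425 and 435 with JQ1, 523, 507 and 517 in DKO-C1 and 346 and 342 with JQ1. As with AURKA, DKO-C1 moved from above control to below it in every library. TPX2 changed by -0.59 ± 0.0459 in DKO-C1 and -0.18 ± 0.0403 in control (adjusted p = 2.35e-13 and 0.000316), with a difference of -0.41 ± 0.0607 (adjusted p = 7.01e-06).

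HMMR, a spindle-pole protein, fell in DKO-C1 (-0.57 ± 0.0735, adjusted p = 3.25e-08) and was at 0.01 ± 0.0643 in control (adjusted p = 0.896), with a difference of -0.58 ± 0.0974 (adjusted p = 5.11e-05). DLGAP5, which stabilises kinetochore fibres, changed by -0.16 ± 0.062 in DKO-C1 (adjusted p = 0.03) and rose by 0.21 ± 0.053 in control (adjusted p = 0.00119), and the fall was not called without DKO-C1 replicate 1 (-0.13, adjusted p = 0.108) or 3 (-0.15, 0.0686) or JQ1-treated replicate 1 (-0.17, 0.0948) or a (-0.13, 0.214). ASPM, another spindle-pole protein, rose in control (0.34 ± 0.0884, adjusted p = 0.00112) and was at -0.06 ± 0.0968 in DKO-C1 (adjusted p = 0.639). Its difference (adjusted p = 0.0468) and that of the microtubule bundler NUSAP1 (adjusted p = 0.0388) were close to the threshold. The call of ASPM was lost without any 1 of 9 libraries (0.052, without control replicate 1, to 0.149, without JQ1-treated DKO-C1 replicate a) and that of NUSAP1 without any 1 of 7 (0.0546, without JQ1-treated control replicate 2, to 0.339, without JQ1-treated DKO-C1 replicate a). The fall of NUSAP1 in DKO-C1 (-0.19, adjusted p = 0.0243) was not called without DKO-C1 replicate 1 (-0.17, adjusted p = 0.0696) or JQ1-treated replicate a (-0.09, 0.458).

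The 2 transcription factors that drive many of these genes fell in both lines, and neither was called in the difference. FOXM1 was at 192, 197 and 191 CPM in control, 146, 145 and 148 with JQ1, 245, 265 and 268 in DKO-C1 and 175 and 177 with JQ1. MYBL2 was at 200.2, 206 and 212, 188, 179 and 183, 232, 248 and 264 and 192 and 203 CPM in the same order. In DKO-C1 both genes were above control untreated and above JQ1-treated control once treated, in every library. FOXM1 changed by -0.56 ± 0.0561 in DKO-C1 and -0.40 ± 0.0503 in control (adjusted p = 1.00e-10 and 1.41e-08), with a difference of -0.16 ± 0.0749 (adjusted p = 0.209; -0.22 and 0.0371 when only the libraries compared were fitted). MYBL2 changed by -0.33 ± 0.064 and -0.17 ± 0.0573 (adjusted p = 5.07e-05 and 0.0123), with a difference of -0.16 ± 0.0857 (adjusted p = 0.308), and its control fall was not called without control replicate 3 (-0.15, adjusted p = 0.0545).

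With JQ1 in both lines, 29 of the 44 members were not called between DKO-C1 and control. Compared directly, 12 were lower and 3 higher in DKO-C1 (median -0.03), where 22.4% of all genes were lower and 24.3% higher (median 0.02). KIF20A (-1.06 ± 0.0519, adjusted p = 1.22e-19), DLGAP5 (-0.79 ± 0.0617, 1.11e-13), CDC20 (-0.55 ± 0.0561, 1.67e-10) and PLK1 (-0.48 ± 0.0623, 4.34e-08) were the lowest apart from PRC1 and NUSAP1. FOXM1 (0.26 ± 0.0561, adjusted p = 0.000158), ANLN (0.23 ± 0.0591, 0.00119) and ECT2 (0.23 ± 0.0682, 0.00533) were higher, ECT2 not without JQ1-treated control replicate 1 (0.17, adjusted p = 0.0546) or JQ1-treated DKO-C1 replicate 1 (0.20, 0.0683). Set beside untreated control, the median member stood at 1.204 times its control mean in DKO-C1, 0.922 times in DKO-C1 with JQ1 and 0.961 times in control with JQ1. The DKO-C1 mean was above that of control for 38 members, the JQ1-treated DKO-C1 mean was below that of control for 32, and 26 did both. With ERCC factors all 44 were lower in DKO-C1 than in control under JQ1, where 78.9% of all genes were.

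Without the drug, most members stood higher in DKO cells than in control. A possible difference in how DKO libraries were counted, described below, was not tested and bears on this comparison. DKO cells (mean of the 2 sublines) had 33 of 44 members higher and 3 lower than control (median 0.29), where 29.5% of all genes were higher and 32.1% lower (median -0.02). These comparisons share the untreated control and DKO-C1 libraries with the JQ1 comparisons. All 5 kinetochore genes rose (median 0.49), as did 6 of 7 kinesins (median 0.33), 6 of 9 entry genes, 3 of 4 cytokinesis genes and both transcription factors (FOXM1 0.47, MYBL2 0.31). ANLN rose most, from 290.1, 297 and 283 CPM in control to 528, 516 and 508 in DKO-C1 and 584, 502 and 575 in DKO-C2, a log2 fold change of 0.89 ± 0.0477 (adjusted p = 1.08e-18). UBE2C rose by 0.76 ± 0.0482 (adjusted p = 1.33e-16), ECT2 by 0.62 ± 0.0534 (adjusted p = 1.10e-12) and TOP2A by 0.54 ± 0.0468 (adjusted p = 9.18e-13), and both DKO sublines were above all control libraries for each of the 4. KIF20A (-0.02 ± 0.0379, adjusted p = 0.655), CDC20 (0.0078 ± 0.0429, 0.888) and PLK1 (0.06 ± 0.0467, 0.235) were not called.

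DLGAP5 fell in DKO, from 121, 112 and 117 CPM in control to 90.0, 82.4 and 87.8 in DKO-C1 and 90.4, 77.9 and 85.8 in DKO-C2 (-0.45 ± 0.0461, adjusted p = 1.02e-10). Taken alone, DKO-C1 had 31 members higher and 3 lower (27% and 28.9% of all genes) and DKO-C2 31 and 3 (28.4% and 30.5%). Compared directly, UBE2C (-0.23) and CDC25B (-0.21) were the 2 members called, both lower in DKO-C1, where 5.75% of all genes were lower and 3.67% higher. CDC25B was at 233, 241 and 244 CPM in DKO-C1 and 257, 309 and 265 in DKO-C2. Without DKO-C2 replicate b its gap was -0.13 (adjusted p = 0.117), without DKO-C1 replicate 1 it was -0.19 (0.0514), and with ERCC factors -0.45 (0.0538). UBE2C kept the call throughout, at -0.16 without DKO-C2 replicate b (adjusted p = 0.038) and -0.47 with ERCC factors (0.0403). The ERCC scale turned the sign of the 4 largest rises: with ERCC factors all genes moved by a median of -0.90 in DKO against control and 42 members were called lower, with 0 higher, where 83.3% of all genes were lower. On that scale ANLN was at -0.022, UBE2C at -0.13, ECT2 at -0.29 and TOP2A at -0.36. The members' median was then -0.61 and that of all genes -0.92, so the members stood above all genes on both scales. Leaving out 1 library left 32 to 34 members higher and 3 lower; the 1 call lost was that of HMMR (0.14, adjusted p = 0.0269), without control replicate 2 (0.0822) or 3 (0.0985), DKO-C1 replicate 1 (0.0567) or DKO-C2 replicate a (0.0999).

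**Figure D3:**
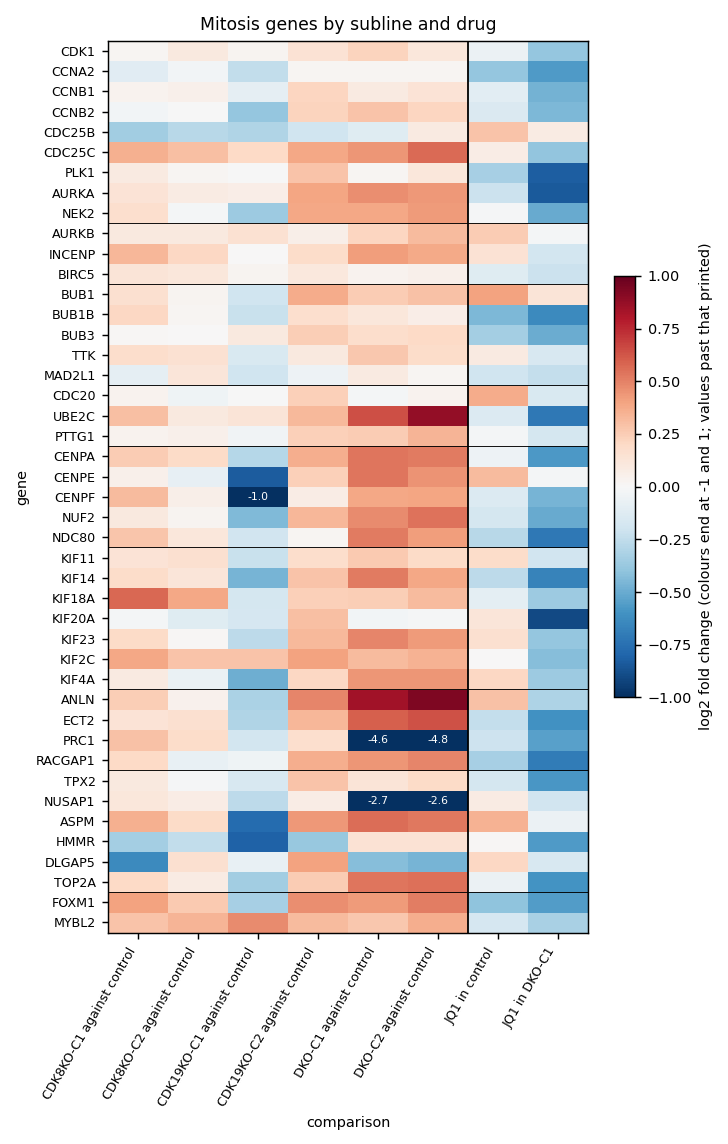
Log2 fold change (colour, ending at ±1, with values past it printed) of the 44 mitosis genes in rows, by role. Columns give the 6 untreated knockout sublines against control, then JQ1 in control and in DKO-C1. Most members are above 0 in both DKO and both CDK8KO columns and in CDK19KO-C2, and below 0 in CDK19KO-C1 and with JQ1 in DKO-C1. With JQ1 in control, 26 are below 0 and 18 above.

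PRC1 and NUSAP1 were the 2 members with large falls in DKO, and their counts need care. PRC1 had 124 to 194 counts in the 8 DKO libraries, drug or not, against 3610 to 5627 in the 18 others (-4.70 ± 0.0451, adjusted p = 9.98e-43). NUSAP1 had 487 to 687 against 3026 to 4215 (-2.63 ± 0.0442, adjusted p = 3.03e-35). In GENCODE v29 (GRCh38), PRC1 (chr15:90966038-90995629, - strand) shares 57.6% of its exon bases with AC068831.7 on the same strand, and NUSAP1 (chr15:41332694-41381050, + strand) shares 62.2% with AC087721.2. The sources used here do not name the annotation that the authors counted against. Among 247 tested genes with at least 50% of exon bases shared on the same strand, 50 were more than 4-fold lower in DKO (median -0.34), against 1236 of 14608 genes with none shared (median -0.02). In CDK8KO against control 0 of the 247 were more than 4-fold lower (median -0.02), against 65 of the 14608, and edgeR called 10.1% of the 247 and 21% of the 14608 lower.

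Some genes that share sequence with a member also dropped. Others had hardly any counts in DKO libraries or elsewhere: AC068831.7, which overlaps PRC1, had 0 to 2 in both, and BUB1B-PAK6, which overlaps BUB1B, 0 to 5 in both. KIF4B, a near copy of KIF4A, had 2 to 5 counts in DKO libraries against 52 to 104 elsewhere, PTTG3P, a copy of PTTG1, 0 to 2 against 8 to 26, and the pseudogene CDC20P1 134 to 191 against 440 to 735. VPS33B, beside PRC1, had 47 to 75 against 359 to 468, while RCCD1, on its other side, had 567 to 819 against 508 to 689. Whether the DKO libraries were counted in another way than the rest was not tested. Every comparison of DKO with control, with or without JQ1, sets DKO libraries against others, so this limit holds there for all members. The JQ1 responses of PRC1 and NUSAP1 in DKO-C1 compare DKO libraries with each other. Without PRC1, NUSAP1, KIF4A and BUB1B, 40 members remain, and 1 of them, DLGAP5, was lower in DKO. Strand was not stated either, so for PLK1 (12.5% of exon bases shared with genes on the other strand) and FOXM1 (15.9%) reads of the 2 strands may not have been told apart.

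**Figure D4:**
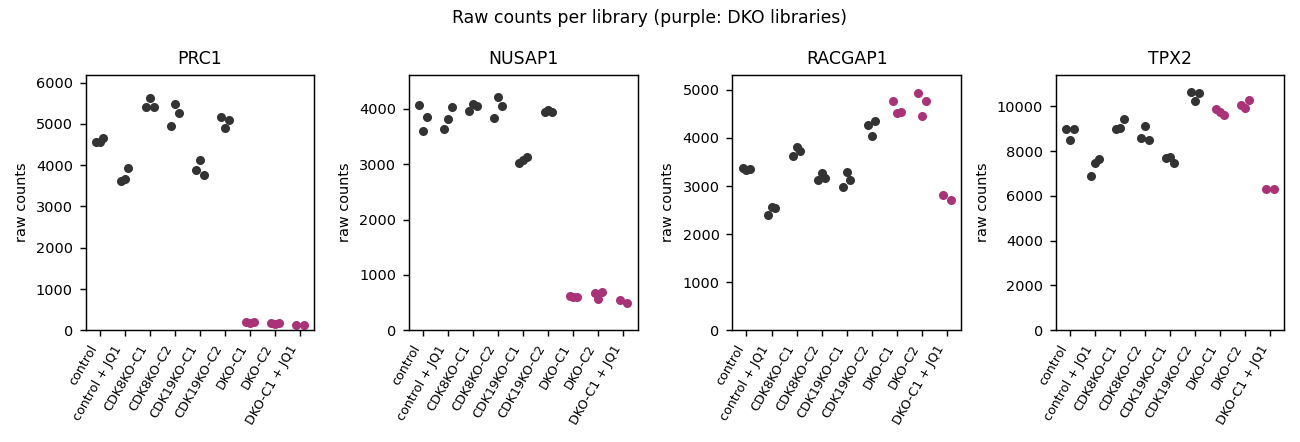
Raw counts (y axis, linear) of PRC1, NUSAP1, RACGAP1 and TPX2 in each library, purple for the 8 DKO libraries. PRC1 and NUSAP1 drop in every DKO library, to 124 to 194 and 487 to 687 counts, and RACGAP1 and TPX2 do not.

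Loss of CDK8 alone gave smaller changes. In CDK8KO (mean of 2 sublines) 20 members were higher and 3 lower than control (median 0.10), where 19.5% of all genes were higher and 21% lower (median -0.02). KIF18A (0.48 ± 0.0519, adjusted p = 1.84e-09), KIF2C (0.34 ± 0.0389, 6.56e-09), FOXM1 (0.33 ± 0.0433, 8.84e-08) and CDC25C (0.33 ± 0.067, 0.000137) rose most. CDC25B (-0.31 ± 0.0459, adjusted p = 8.33e-07), HMMR (-0.30 ± 0.0556, 4.53e-05) and DLGAP5 (-0.24 ± 0.0461, 5.83e-05) fell. The number of members higher dropped to 12 without control replicate 3. Taken alone, CDK8KO-C1 had 23 members higher and 4 lower (19.8% and 19.4% of all genes), and CDK8KO-C2 had 12 higher and 3 lower (16.8% and 17.2%). Compared directly, 12 were higher and 2 lower in CDK8KO-C1 (11.5% and 9.63% of all genes), with RACGAP1 (0.27) and CENPF (0.26) highest and DLGAP5 (-0.80) and MAD2L1 (-0.21) lower. The 12 became 5 to 9 whichever library of these sublines was left out. They were 5 without CDK8KO-C1 replicate 3 or CDK8KO-C2 replicate 2, 7 without CDK8KO-C2 replicate 1 and 9 without CDK8KO-C1 replicate 1. MAD2L1 lost its call without CDK8KO-C1 replicate 1 (adjusted p = 0.0986) or 2 (0.0706) or CDK8KO-C2 replicate 2 (0.0802) or 3 (0.0678), and CENPF without CDK8KO-C1 replicate 1 (0.0798) or 3 (0.071) or CDK8KO-C2 replicate 1 (0.174). With ERCC factors DLGAP5 alone kept its call (-0.74, adjusted p = 7.60e-05). DLGAP5 was at 77.6, 72.5 and 74.6 CPM in CDK8KO-C1 and 131, 129.6 and 130.4 CPM in CDK8KO-C2, so the mean fall came from CDK8KO-C1 (-0.64) and CDK8KO-C2 alone was at 0.16 (adjusted p = 0.0191). With ERCC factors all genes moved by a median of -1.22 and all 44 members were lower, where 94.3% of all genes were.

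Loss of CDK19 gave 2 sublines that went apart, so the mean over them describes neither. Over both, 10 members were higher and 6 lower (median 0.03), where 21% of all genes were higher and 22% lower (median -0.02). In CDK19KO-C1, 28 members were lower and 4 higher than control (median -0.19; 24% and 22.1% of all genes). In CDK19KO-C2, 33 were higher and 2 lower (median 0.24; 21.8% and 20.6% of all genes). Compared directly, 38 members were lower and 1, MYBL2, higher in CDK19KO-C1 (median -0.39), where 24.2% of all genes were lower and 23.8% higher (median -0.0033). The largest gaps were ASPM (-1.20), at 77.6, 64.3 and 57.4 CPM in CDK19KO-C1 and 151, 159 and 149.5 in CDK19KO-C2, CENPF (-1.09), at 195, 172 and 137 and 341, 371 and 361, and CENPE (-1.07), at 49.1, 43.2 and 31.4 and 86.0, 87.1 and 87.7. With 1 library left out 35 to 39 members were lower, and with ERCC factors 38. MYBL2 was not called without CDK19KO-C1 replicate 2 (0.13, adjusted p = 0.0981) or 3 (0.14, 0.0746) or CDK19KO-C2 replicate 3 (0.14, 0.0708), and was at -0.065 with ERCC factors. For ASPM, CENPF and CENPE no library of one subline overlapped the other. CDK19KO-C1 held the lowest group mean of the 9 groups for 19 members, more than JQ1-treated DKO-C1 (13, PRC1 and NUSAP1 among them). MYC, a driver of proliferation, was at 749 ± 31.4 CPM (SD, n = 3) in CDK19KO-C1 and 326 ± 6.85 in CDK19KO-C2; its part in the difference was not tested.

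Averaged over both CDK19KO sublines, MYBL2 (0.39 ± 0.0498, adjusted p = 4.76e-08), KIF2C (0.34 ± 0.0389, 4.63e-09), CDC25C (0.29 ± 0.0673, 0.000518) and AURKA (0.23 ± 0.0402, 1.39e-05) rose most. The rise of AURKA came from CDK19KO-C2, at 128, 135 and 132 CPM (0.39), while CDK19KO-C1, at 104, 107 and 105, overlapped control (0.069, adjusted p = 0.231). HMMR (-0.60 ± 0.0558, adjusted p = 5.04e-11), CENPF (-0.47 ± 0.0734, 2.30e-06), CENPE (-0.30 ± 0.0897, 0.00705) and CDC25B (-0.25 ± 0.046, 3.09e-05) fell most. The call of CENPE was lost without control replicate 1 (-0.26, adjusted p = 0.0542). In CDK19KO-C2 alone CENPF was at 0.075 (adjusted p = 0.512) and CENPE at 0.24 (0.0553), so their falls came from CDK19KO-C1. HMMR was below control in both sublines, at -0.81 in C1 and -0.38 in C2. With ERCC factors all genes moved by a median of -1.65 and all 44 members were lower, where 97.8% of all genes were.

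CDK8KO and CDK19KO cells, neither of which carries the spike-in label, were also set against each other: 20 members were higher and 6 lower in CDK8KO (median 0.06), where 23.6% of all genes were higher and 23.4% lower (median 0.0051). CENPF (0.66 ± 0.061, adjusted p = 1.81e-11), KIF18A (0.45 ± 0.0418, 2.45e-11), ASPM (0.44 ± 0.0633, 4.37e-07) and HMMR (0.30 ± 0.047, 1.75e-06) were higher. DLGAP5 (-0.40 ± 0.0379, adjusted p = 2.81e-11), BUB3 (-0.16 ± 0.0312, 5.33e-05), KIF20A (-0.14 ± 0.031, 0.000412) and AURKA (-0.12 ± 0.0325, 0.00185) were lower. The balance turned with the subline: between the C1 sublines 31 members were higher and 2 lower in CDK8KO (25.6% and 25% of all genes), and between the C2 sublines 2 were higher and 26 lower (18.7% and 19.5%). ASPM was at -0.25 between the C2 sublines (adjusted p = 0.0226) and CENPF at -0.012 (0.929), and HMMR at 0.13 was not called there (0.12). Between the C1 sublines KIF20A was at 0.14 (adjusted p = 0.00643), AURKA at 0.066 (0.245) and BUB3 at -0.085 (0.107). With ERCC factors all genes moved up by a median of 0.43 and 43 members were higher in CDK8KO, and the 4 genes named as lower were above 0, from 0.028 for DLGAP5 to 0.31 for AURKA.

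Over the 9 groups the highest group mean was in DKO-C1 for 15 members and DKO-C2 for 12, and in control for 0. The lowest was in CDK19KO-C1 for 19, in JQ1-treated DKO-C1 for 13, in JQ1-treated control for 7 and in control for 3. PRC1 and NUSAP1, low in every DKO library, were among the 13. The ratio of the highest to the lowest group mean ran from 1.23 for BIRC5 to 2.67 for CENPF, apart from NUSAP1 (7.92) and PRC1 (43.6). Each of the 44 was called in at least 1 of the 8 comparisons above.

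The promoter letters were set beside the JQ1 responses as a description. Of the 27 members with CHR letters, 22 were lower in the difference (median -0.37), and of the 9 without them, 5 were (median -0.33). Of the 29 with CCAAT, 23 were (median -0.37), and of the 7 without it, 4 were (median -0.33). KIF20A, with CCAAT and no CHR letters in its window, had the largest difference of all, and KIF2C, with neither, was also lower in the difference. FOXM1 and AURKA were among the 8 members with no window.

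Other genes of the cell cycle were counted in the same way. For each list here and below, the shares of all tested genes were 25.4% lower and 24.9% higher in DKO-C1. They were 29.1% and 27% in control, and 4.7% and 3.9% in the difference. Of 37 further genes of the spindle, mitotic entry and cytokinesis, 26 fell with JQ1 in DKO-C1 (median -0.30), 14 fell and 11 rose in control (median 0.02), and 19 were lower in the difference. They were led in DKO-C1 by BORA, the cofactor through which AURKA activates PLK1 (-0.96 ± 0.082, adjusted p = 2.10e-12), and ARHGAP11A, a GTPase-activating protein (-0.69 ± 0.0738, 4.89e-10). Of 20 genes of condensin, cohesin and separase, 12 fell in DKO-C1, 7 fell and 6 rose in control, and 6 were lower in the difference; STAG1, a cohesin subunit (-0.80 ± 0.0733, adjusted p = 1.12e-11), and ESPL1, the gene of separase (-0.58 ± 0.0569, 5.54e-11), led the falls. Of 33 other kinetochore and centromere genes, 15 fell and 2 rose in DKO-C1, 10 fell and 6 rose in control, and 5 were lower in the difference, with HJURP, the chaperone of CENPA (-0.63 ± 0.0548, adjusted p = 3.47e-12), and CENPL (-0.62 ± 0.0878, 1.77e-07) lowest, and CENPN (0.17) and MAD1L1 (0.17) rising. With ERCC factors edgeR called 0 genes of these 3 lists higher in either line (0 at an unadjusted p under 0.05), so no rise held on that scale. In control 20, 12 and 21 were lower, where 44.6% of all genes were. In the difference edgeR called 0, where 2, 0 and 1 were lower at an unadjusted p under 0.05 and 0.343% of all genes were called lower.

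Of 17 genes of the anaphase-promoting complex, 2 fell and 4 rose in DKO-C1, 2 fell and 7 rose in control, and 1 was lower in the difference; its inhibitor FBXO5 (-0.39 ± 0.0683, adjusted p = 8.10e-06) and the subunit CDC16 (-0.29 ± 0.0586, 7.81e-05) fell, and ANAPC11 (0.39) and ANAPC16 (0.25) rose. Of 38 genes of DNA replication and S phase, 19 fell and 6 rose in DKO-C1 (median -0.16), 21 fell and 6 rose in control (median -0.18), and 1 was called in the difference, as higher (median 0.03). POLE2, a subunit of a replicative polymerase (-0.93 ± 0.0908, adjusted p = 6.23e-11), and MCM5, of the replicative helicase (-0.66 ± 0.0609, 1.63e-11), fell most in DKO-C1, and RRM2 (0.50) and TK1 (0.44), which supply nucleotides, rose. On the ERCC scale none of these rises was called: of the 17 genes 2 were lower in DKO-C1 and 8 in control, of the 38 genes 19 and 28, and edgeR called 0 higher (at an unadjusted p under 0.05, 1 of the 38 in control). Of all genes, 28.7% were lower in DKO-C1 and 44.6% in control on that scale. In the difference 0 of both lists were called, and 0 had an unadjusted p under 0.05.

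Of 14 regulators of the DREAM and MuvB complexes and E2F factors, 8 fell and 2 rose in DKO-C1, 8 fell and 3 rose in control, and 3 were lower and 1 higher in the difference. E2F8 (-1.28 ± 0.0629, adjusted p = 5.41e-19), a repressor of the E2F family, and the MuvB subunit LIN9 (-0.65 ± 0.12, 1.89e-05) fell, and LIN37, another MuvB subunit (0.64), and E2F1 (0.17) rose. With ERCC factors 8 of the 14 were lower in DKO-C1 and 10 in control, where 28.7% and 44.6% of all genes were. On that scale edgeR called 0 higher in either line (0 unadjusted) and 0 in the difference (1 higher unadjusted). Of 9 genes of cell cycle exit, 6 rose in DKO-C1, 8 rose in control, and 3 were higher and 1 lower in the difference. The median of the 9 differences was -0.23, with 6 of them below 0. CDKN1A, the gene of the CDK inhibitor p21, rose by 1.37 ± 0.064 in DKO-C1 and 0.73 ± 0.0586 in control (adjusted p = 1.20e-19 and 3.36e-13), with a difference of 0.64 ± 0.087 (adjusted p = 1.47e-06). CDKN1C, the gene of p57, rose by 1.29 and 0.72. With ERCC factors 5 of the 9 were higher in DKO-C1 and 3 in control, and edgeR called 0 in the difference (2 higher unadjusted), with CDKN1A at 1.10 in DKO-C1 (adjusted p = 9.26e-10), 0.37 in control (0.0338) and 0.74 in the difference (0.0948). MYC started lower in DKO-C1, at 150.4 ± 0.927 CPM against 499 ± 70.1 in control (SD, n = 3 each), and fell less with the drug there, with a log2 fold change of -0.28 ± 0.0729 against -0.86 ± 0.0619 (adjusted p of the difference = 3.63e-05; 0.157 with ERCC factors).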

How the data were processed

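RNA from 26 libraries of HCT116 cells was sequenced as paired reads, per the labels' protocols. The authors deposited 1 table of raw read counts per gene for 58131 features (58039 genes and 92 ERCC spike-ins), made with STAR 2.5.2 and featureCounts of Subread 1.6.3 on hg38, per the submitters' processing notes; those sources do not name the annotation release or strand setting. Of the table's columns, 22 match a sample title and 4 match a group only: 3 columns numbered CL3 were taken as DKO-C2, the 1 DKO subline left, and 1 JQ1-treated DKO-C1 column has a number of its own.

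From these counts, edgeR 4.0.16 (R 4.3.3; TMM factors 0.956 to 1.02; at least 10 counts in a group's worth of libraries and 15 in all; 17198 genes kept) fitted 9 groups at once, with quasi-likelihood F tests and Benjamini-Hochberg adjustment at 0.05. SE is the log2 fold change over the square root of F. Data were simulated from the means of these libraries for the difference of JQ1 responses over 17198 genes, 200 of them changed. In them 22% of changes of 1.25-fold and 78% of 2-fold were recovered, and 6.35% of calls fell on unchanged genes. Unchanged genes had the same mean share in all groups, and changed genes came from all expression levels. These rates are therefore not those of the members. Alternatives were DESeq2 1.42.0 and its size factors, limma 3.58.1 (voom), ERCC factors, no filter, a minimum of 5 CPM in 2 libraries, only the libraries compared, a replicate block, single sublines and leaving out libraries in turn. Comparisons of a subline with its partner (with each library left out and with ERCC factors), shared sequence and promoter letters, and the 40 members with little shared sequence were added after the data had been seen.

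The members and lists were chosen with earlier results of these data known. Members named with values in every JQ1 library are up to 2 of each role with the largest change under JQ1 in DKO-C1, with KIF20A, PLK1, AURKA, CCNB1, FOXM1 and MYBL2; CDC20 and the genes of subline gaps were added after their values were seen. Genotype comparisons name up to 4 called members in each direction. Same-numbered libraries did not vary together (3 of 63 pairs correlated over 0.1), so numbers were not used as pairs.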

Additional observations from a re-analysis of the deposited data

Results flagged for a closer look

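The direct test of the difference between the JQ1 responses of DKO-C1 and control cells called 31 members lower in DKO-C1. Among the members described library by library, the difference on the log2 scale was -1.03 for KIF20A, -0.62 for AURKA, -0.58 for UBE2C, -0.54 for TOP2A, -0.53 for CENPA, -0.49 for PLK1, -0.43 for NDC80, -0.41 for KIF14 and TPX2, -0.37 for CCNB1 and ECT2, -0.36 for RACGAP1 and -0.33 for INCENP. The treated DKO-C1 group has 2 libraries and is from 1 subline, and no library is of DKO-C2 with JQ1.

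Sublines of one knockout also differed by a direct test. Between the CDK19KO sublines 38 members were lower and 1 higher in C1. Between the CDK8KO sublines 2 were lower, DLGAP5 and MAD2L1, and 12 higher in C1. Between the DKO sublines 2 were lower in C1. No group had 4 libraries or more, so no library was tested as an outlier.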

How the results depend on the processing

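The counts of members called kept within 1.5 times their value under DESeq2, its size factors, voom and a minimum of 5 CPM. With ERCC factors, JQ1 in control gave 0 higher, the difference of responses 1 lower, DKO-C1 against control under JQ1 44 lower and 0 higher, DKO against control 42 and 0, CDK8KO and CDK19KO 44 and 0 each, and CDK8KO against CDK19KO 0 lower and 43 higher; 0 means edgeR calls. The spike-in scale carries the spread of spike-in shares between libraries, and what sets those shares was not tested. On that scale these values changed sign: with JQ1 in control INCENP (-0.23) and KIF20A (-0.24); in the difference BIRC5 (0.00992); in DKO ANLN (-0.022), UBE2C (-0.13), ECT2 (-0.29) and TOP2A (-0.36); in CDK8KO KIF18A (-0.74), KIF2C (-0.88), FOXM1 (-0.89) and CDC25C (-0.89); in CDK19KO MYBL2 (-1.26), KIF2C (-1.30), CDC25C (-1.36) and AURKA (-1.42); between the CDK19KO sublines MYBL2 (-0.065); and in CDK8KO against CDK19KO DLGAP5 (0.028), BUB3 (0.28), KIF20A (0.30) and AURKA (0.31).

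With no filter, DKO-C1 against control under JQ1 gave 5 higher. With only the libraries compared, JQ1 in DKO-C1 gave 1 higher. With a replicate block over the 22 numbered libraries, JQ1 in DKO-C1 gave 1 higher and DKO-C1 against control under JQ1 6, against 1 and 5 in the same libraries with no block, and PTTG1 with JQ1 in control was 0.0014. No paired analysis was possible for DKO against control because the DKO-C2 columns carry no sample's number. With subline C1 alone, CDK19KO gave 28 lower and 4 higher and CDK8KO against CDK19KO 2 and 31, and there KIF20A was 0.14 and AURKA 0.066. With C2 alone, CDK8KO gave 12 higher, CDK19KO 2 lower and 33 higher and CDK8KO against CDK19KO 26 and 2; DLGAP5 was 0.16 in CDK8KO, CENPF 0.075 and CENPE 0.24 in CDK19KO, and CENPF -0.012 and ASPM -0.25 between them. With the 40 members of little shared sequence, 1 was lower in DKO. The cause of these changes was not tested beyond the fewer libraries or members of the last settings.

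Leaving out 1 library gave 32 to 38 members lower and 0 higher for JQ1 in DKO-C1, 15 to 19 lower and 11 to 13 higher in control, 22 to 34 lower and 0 higher for the difference, 10 to 14 and 2 to 3 for DKO-C1 against control under JQ1, 3 and 32 to 34 for DKO, 3 and 12 to 19 for CDK8KO, 4 to 8 and 8 to 12 for CDK19KO, and 5 to 7 and 18 to 22 for CDK8KO against CDK19KO. PTTG1 with JQ1 in control ran from -0.056, without JQ1-treated control replicate 1, to 0.031, without JQ1-treated control replicate 2.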
